A study of Saccharomyces cerevisiae with 10 samples.

Results

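The genes described here encode protein subunits of the mitochondrial ribosome of the yeast Saccharomyces cerevisiae. They were chosen by name: every S. cerevisiae gene on the array whose name starts with MRPL, MRPS, MRP or RSM followed directly by a digit. This gave 66 genes of 5654 tested. The mitochondrial ribosome translates the few messages encoded in mitochondrial DNA, most of them for core subunits of the respiratory chain and the ATP synthase. Nearly all of its proteins are encoded in the nucleus, made in the cytosol and imported, and many of them have relatives in the ribosomes of bacteria while others are found only in mitochondria. In yeast their messages are known to be low when glucose is abundant and higher when cells respire.

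By the standard nomenclature of ribosomal proteins, 37 of the 66 genes belong to the large subunit and 27 to the small subunit. Of these, 23 and 17 have a bacterial relative, and 14 and 10 are mitochondria-specific. The other 2 carry the name without a ribosomal standard name: RSM22, a methyltransferase-like protein needed for the small subunit, and MRP8, whose function is not established. The genes lie on 14 chromosomes, with the most on chromosome IV (12 genes). For all 66 the authors' deposited table has the same coordinates as the RefSeq R64 assembly, and these are the ones given. Each had 1 probe set of its own. All 66 were on every array above the background, taken as the 95th percentile of the probe sets for fission yeast that the array also carries.

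All cultures were strain TMB3500, grown aerobically in a batch on glucose and then fed. The hydrolysate cultures received spruce hydrolysate, a wood sugar liquor used without detoxification, and were sampled after 9 h and 18 h. The sugar cultures received a solution of the sugars glucose, xylose and mannose, about as concentrated as in the hydrolysate, and were sampled at the same times. The start group was sampled at 0 h, before either feed, and serves both feeds. Each of the 5 groups had 2 arrays from biological replicates, 10 arrays in all. Feeding was raised over 16 h until 0.1 L/h was reached, with 0.04 L/h at first, and 1 L entered a culture of 0.7 L. Levels are deposited log2 intensities, on which a difference of 1 is a 2-fold difference. They were scaled so that all arrays have like distributions, so a level is relative to the other messages in the same RNA. In RNA of a whole culture, fewer cells with a message and less of it per cell cannot be told apart. Genes were compared with limma across all 5654 genes, and a gene is said to rise or fall where its Benjamini-Hochberg adjusted p was under 0.05.

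The 66 genes were high at the start and low late in the sugar feed. Averaged over the genes, with each gene set to its own mean, the deviation was 1.12 and 0.82 log2 units on the start arrays. It was 0.74 and -0.04 on the hydrolysate arrays at 9 h and -0.31 and -0.18 at 18 h. On the sugar arrays it was -0.43 and -0.20 at 9 h and -0.75 and -0.77 at 18 h. The first hydrolysate array at 9 h thus stood near the start arrays, and the second near the sugar arrays of the same time.

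The start had the highest mean of the 5 groups in 59 of the 66 genes, and the sugar feed at 18 h had the lowest in 46. Both start arrays exceeded all 8 fed arrays in 38 genes, a pattern found in 16% of all genes. Both sugar arrays at 18 h lay below the other 8 arrays in 38 genes, against 17.6% of all genes, and 21 genes showed both patterns, against 3.25%. The most frequent order of group means, found in 32 genes, was start, hydrolysate 9 h, hydrolysate 18 h, sugar 9 h and sugar 18 h from high to low. The correlation of a gene with the average of all 66 over the 10 arrays had a median of 0.94, with 42 genes over 0.9 and 4 under 0.5. These 4 were RSM22 (-0.51), MRP20 (0.14), MRP8 (0.24) and MRPL4 (0.35). The arrays share their groups, and each gene is part of the average, so these values only describe the pattern.

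**Figure D1:**
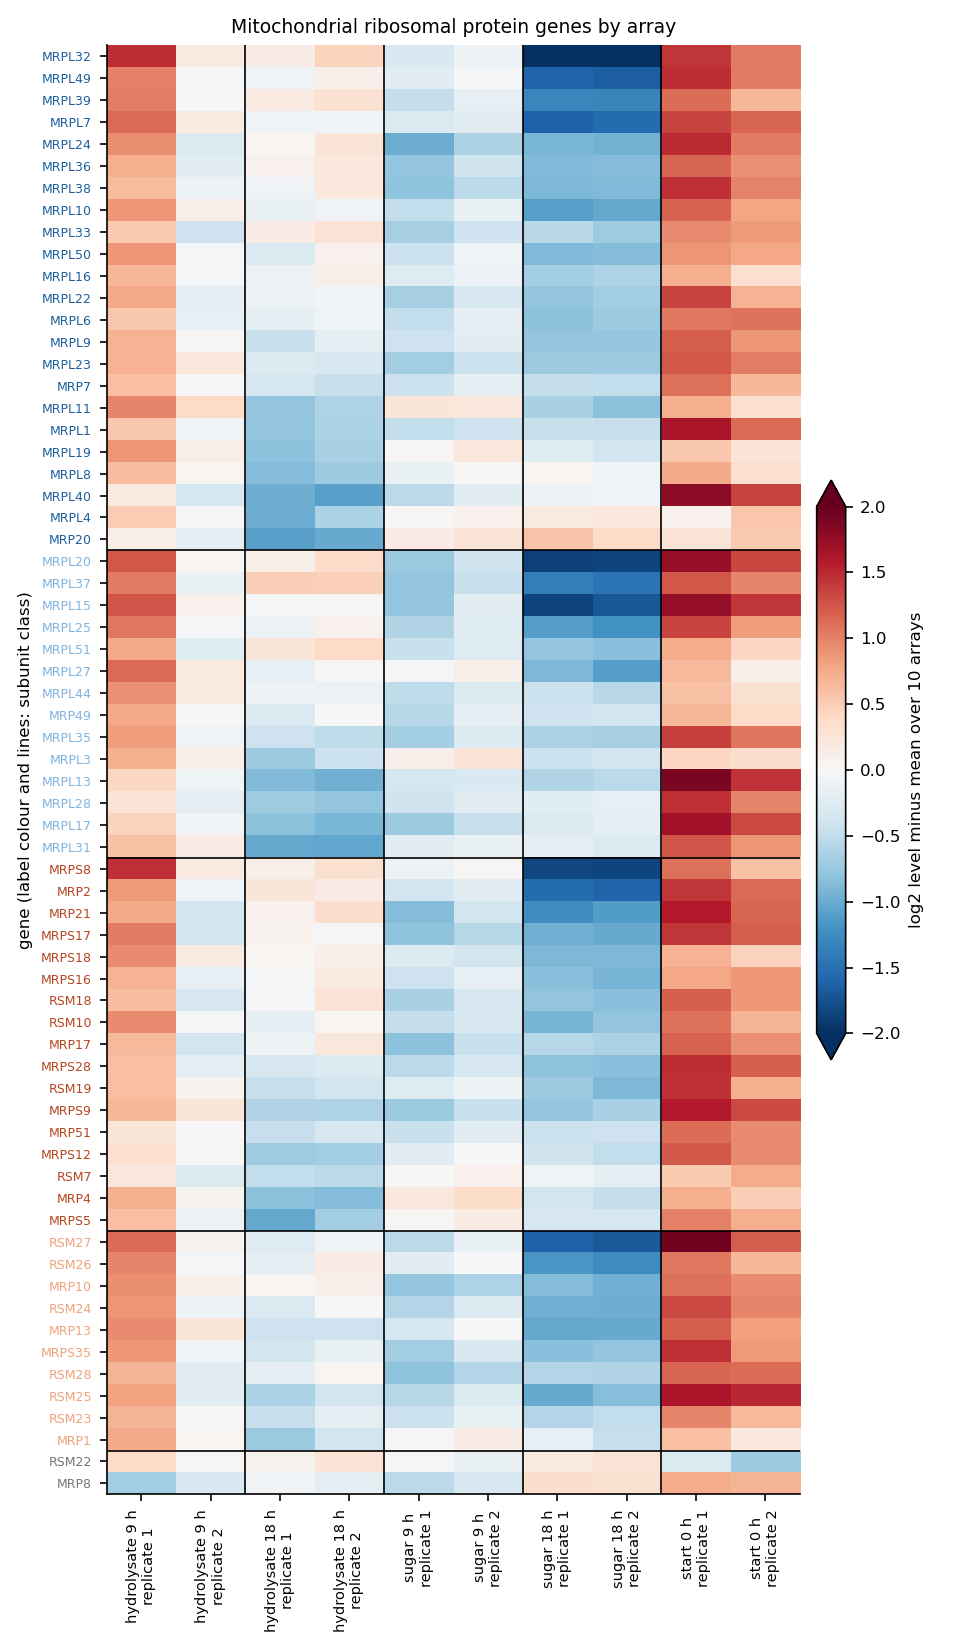
Level of each of the 66 genes on each of the 10 arrays, as the log2 level minus the gene's mean over the 10 arrays (red above, blue below, colours end at 2 log2 units), in the order hydrolysate 9 h, hydrolysate 18 h, sugar 9 h, sugar 18 h and start. Rows are grouped by subunit class, first large subunit with bacterial relative (23 genes), large mitochondria-specific (14), small with bacterial relative (17), small mitochondria-specific (10) and no subunit (2), and within a class run from the highest to the lowest difference between feeds at 18 h. The start columns are red in nearly every row, the sugar 18 h columns blue in most, and the 2 hydrolysate 9 h columns differ from each other.

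After 18 h of sugar feed, 62 of the 66 genes were lower than at the start and 1 was higher, by limma. Of all genes, 66.5% were called in this comparison, 29.7% as lower. The median of the 66 genes was -1.79, against 0.08 over all genes. The deepest falls were in MRPL32, a relative of bacterial L32 whose maturation is a step in assembling the large subunit, and in MRPL20 and MRPL15, both mitochondria-specific proteins of the large subunit. MRPL32 had log2 levels of 9.50 and 9.41 on the sugar 18 h arrays and 13.04 and 12.65 on the start arrays. MRPL20 had 9.69 and 9.72 on the sugar 18 h arrays, against 13.29 and 12.89 at the start. In both genes the sugar 18 h arrays were the lowest of all 10, more than 1 log2 unit under the next. MRPL32 fell by 3.39 ± 0.36 (SE, n = 2 arrays a group) on the log2 scale, a 10.5-fold difference, with an adjusted p of 8.65e-05 by limma. MRPL20 fell by 3.39 ± 0.34 and MRPL15 by 3.36 ± 0.34. RSM27, a mitochondria-specific protein of the small subunit, fell by 3.22 ± 0.35. Without either sugar 18 h array or either start array in turn, between 59 and 63 of the 66 genes were called. With the length trend of all genes removed, 57 were lower and none higher, with a median of -1.42.

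Most of these genes were already lower after 9 h of sugar feed. At that time 56 genes were lower than at the start and none was higher, with a median of -1.38. Over all genes 66.2% were called, 32.2% as lower. Of the 66 genes, 57 had an unadjusted p under 0.05. MRPL20 fell by 2.10 ± 0.34, MRPL17, a mitochondria-specific protein of the large subunit, by 2.09 ± 0.20, MRPL15 by 2.09 ± 0.34 and MRPL24, a relative of bacterial L28, by 2.08 ± 0.35. MRPL17 had 9.88 and 10.15 on the sugar 9 h arrays and 12.28 and 11.93 on the start arrays, with an adjusted p of 4.04e-05 by limma. The sugar and start arrays of this gene did not overlap.

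After 9 h of hydrolysate feed, 34 of the 66 were lower than at the start and 1 was higher, with a median of -0.69. Of all genes, 62.7% were called, 29.1% as lower. The deepest falls were in MRPL40, a relative of bacterial L24 (1.65 ± 0.22), MRPL13, a mitochondria-specific large subunit protein (1.50 ± 0.20), MRPL17 (1.31 ± 0.20) and RSM25, a mitochondria-specific small subunit protein (1.28 ± 0.29). This count rested on single arrays. Without hydrolysate 9 h replicate 1 it was 55 lower and 0 higher, and without hydrolysate 9 h replicate 2 it was 14 lower and 3 higher. Without start replicate 1 it was 14 lower and 1 higher. The call held without each array in turn in 12 genes, MRPL40, MRPL13, MRPL17 and RSM25 among them.

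By 18 h of hydrolysate, 55 genes were lower than at the start and 1 was higher, with a median of -1.15 against 0.10 over all genes. Over all genes 55.4% were called, 22.2% as lower. MRPL40 had 8.87 and 8.76 on the hydrolysate 18 h arrays, against 11.64 and 11.21 on the start arrays. MRPL13 had 9.51 and 9.43 on the hydrolysate 18 h arrays and 12.28 and 11.83 at the start. Both genes were lower on the hydrolysate 18 h arrays than on any other array. MRPL40 fell by 2.61 ± 0.22 (adjusted p = 5.74e-05 by limma) and MRPL13 by 2.59 ± 0.20. MRPL17 fell by 2.36 ± 0.20, and MRPL31, another mitochondria-specific protein of the large subunit, by 2.10 ± 0.18. The 10 genes not called had log2 differences from -0.94 to -0.26, and MRPL32, MRPL37, MRPL39 and MRPS8 were among them. In sugar at 18 h the same 4 genes fell by 3.39, 2.55, 2.21 and 2.66. Both feeds were set against the same 2 start arrays, so the counts for the 4 fed groups are not independent of each other.

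RSM22 went the other way. Its log2 level was 7.92 and 7.55 on the hydrolysate 9 h arrays, 7.60 and 7.80 on the hydrolysate 18 h arrays, 7.49 and 7.38 on the sugar 9 h arrays and 7.70 and 7.79 on the sugar 18 h arrays, against 7.23 and 6.79 at the start. Both start arrays lay below all 8 fed arrays, the only gene of the 66 with the lowest group mean at the start. It rose by 0.72 ± 0.19 in hydrolysate at 9 h, 0.69 ± 0.19 in hydrolysate at 18 h and 0.73 ± 0.19 in sugar at 18 h, and the 0.42 in sugar at 9 h had an adjusted p of 0.077 by limma. Its call was lost in hydrolysate at 9 h without start replicate 2 or hydrolysate 9 h replicate 1, in hydrolysate at 18 h without start replicate 2 or hydrolysate 18 h replicate 2, and in sugar at 18 h without sugar 18 h replicate 2. With the trend on gene length removed from each array it was called in none of these comparisons. RSM22 is the longest of the 66 genes, at 1887 bp.

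MRP20 and MRPL4 were not called lower late in the sugar feed. MRP20, a relative of bacterial L23, had 11.08 and 10.90 on the sugar 18 h arrays, against 10.76 and 11.03 at the start. MRPL4, a relative of bacterial L29, had 9.89 and 9.90 on the sugar 18 h arrays and 9.78 and 10.25 at the start. In both genes the sugar arrays overlapped the start arrays, and the log2 differences were 0.09 ± 0.16 (adjusted p = 0.63 by limma) and -0.12 ± 0.22 (adjusted p = 0.653). In hydrolysate at 18 h the same genes fell, MRP20 by 1.43 and MRPL4 by 1.14. Besides these and RSM22, which was higher, MRP8 was not called lower in sugar at 18 h, with -0.39 ± 0.16 (adjusted p = 0.0587).

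Between the feeds at 18 h, 30 of the 66 genes were higher in hydrolysate and 8 were lower, and 28 were not called. This comparison called 61.9% of all genes, 31.2% as higher and 30.8% as lower, so the count called among the 66 was close to that of all genes. The median of the 66 was 0.58 against 0.01 over all genes, and both hydrolysate arrays lay above both sugar arrays in 46 genes, against 43.4% of all genes. The 10 largest rises ran from 1.48 to 2.45 on the log2 scale. Without each array of these groups in turn, the genes called higher numbered 22 without hydrolysate replicate 1, 15 without hydrolysate replicate 2, 17 without sugar replicate 1 and 19 without sugar replicate 2. Those called lower then numbered 4, 5, 4 and 5. The call held without each of the 10 arrays in 15 of the 30 higher genes and in 4 of the 8 lower ones, MRP20, MRPL4, MRPL31 and MRPL40.

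In the large subunit, 18 of 37 genes rose and 7 fell. MRPL32 led them, with 11.76 and 12.05 on the hydrolysate 18 h arrays, against 9.50 and 9.41 on the sugar 18 h arrays. Its difference was 2.45 ± 0.36, a 5.47-fold higher level in hydrolysate (adjusted p = 0.000557 by limma). The gene lies on chromosome III from 118620 to 119171 on the plus strand. The sugar 18 h arrays were the lowest of the 10 in this gene, and the hydrolysate level at 18 h was 0.54 ± 0.36 below that at 9 h, with no call.

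MRPL20, on chromosome XI from 599094 to 599681 on the minus strand, had 11.67 and 11.94 on the hydrolysate 18 h arrays and 9.69 and 9.72 on the sugar 18 h arrays. It was higher by 2.10 ± 0.34 (adjusted p = 0.000964). MRPL37, another mitochondria-specific protein, had 12.33 and 12.33 in hydrolysate, against 10.46 and 10.37 in sugar at 18 h, a rise of 1.92 ± 0.33. The feeds did not overlap in either gene. MRPL15, with an RNase III-like fold, rose by 1.76 ± 0.34. MRPL49, a relative of bacterial L21, rose by 1.63 ± 0.30, and MRPL39, a relative of bacterial L33 and the shortest gene of the 66 at 213 bp, by 1.56 ± 0.30. MRPL7, a relative of bacterial L5 in the central protuberance of the large subunit, rose by 1.51 ± 0.26.

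In the small subunit, 12 of 27 genes rose and none fell, and 13 of the 27 had an unadjusted p under 0.05. That none fell did not hold with the length trend removed, where MRPS12 (-0.76), MRPS5 (-0.67) and RSM7 (-0.67), relatives of bacterial S12, S5 and S7, were called lower. MRPS8, a relative of bacterial S8 that binds the ribosomal RNA, had 10.76 and 10.96 on the hydrolysate 18 h arrays, against 8.83 and 8.81 on the sugar 18 h arrays. It was higher by 2.04 ± 0.36, or 4.11-fold (adjusted p = 0.00137 by limma). The gene lies on chromosome XIII from 572248 to 572715 on the plus strand. MRP2, a relative of bacterial S14, had 12.16 and 12.08 in hydrolysate and 10.39 and 10.32 in sugar at 18 h, and rose by 1.76 ± 0.27. RSM27 had 9.88 and 10.06 in hydrolysate and 8.52 and 8.46 in sugar, and rose by 1.48 ± 0.35. In all 3 genes the groups were separated by more than 1 log2 unit.

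The falls in hydrolysate at 18 h were in 7 genes of the large subunit and in MRP8. MRP20 had 9.42 and 9.51 on the hydrolysate 18 h arrays, against 11.08 and 10.90 on the sugar 18 h arrays. It fell by 1.52 ± 0.16, a 2.88-fold lower level (adjusted p = 0.000159 by limma). The gene lies on chromosome IV from 1277646 to 1278437 on the plus strand. The hydrolysate arrays at 18 h were the lowest of the 10, while the sugar arrays overlapped those of the start.

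MRPL4 had 8.70 and 9.05 in hydrolysate and 9.89 and 9.90 in sugar at 18 h, and fell by 1.02 ± 0.22. MRPL40, on chromosome XVI from 223143 to 224036, had 8.87 and 8.76 in hydrolysate, against 9.76 and 9.79 in sugar, and fell by 0.96 ± 0.22. MRPL31 fell by 0.79 ± 0.18, MRPL8, a relative of bacterial L17, by 0.78 ± 0.22, MRPL17 by 0.63 ± 0.20 and MRPL28, mitochondria-specific, by 0.55 ± 0.20. MRP8 fell by 0.44 ± 0.16 (adjusted p = 0.0373), with 13.26 and 13.12 in hydrolysate and 13.65 and 13.61 in sugar.

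**Figure D2:**
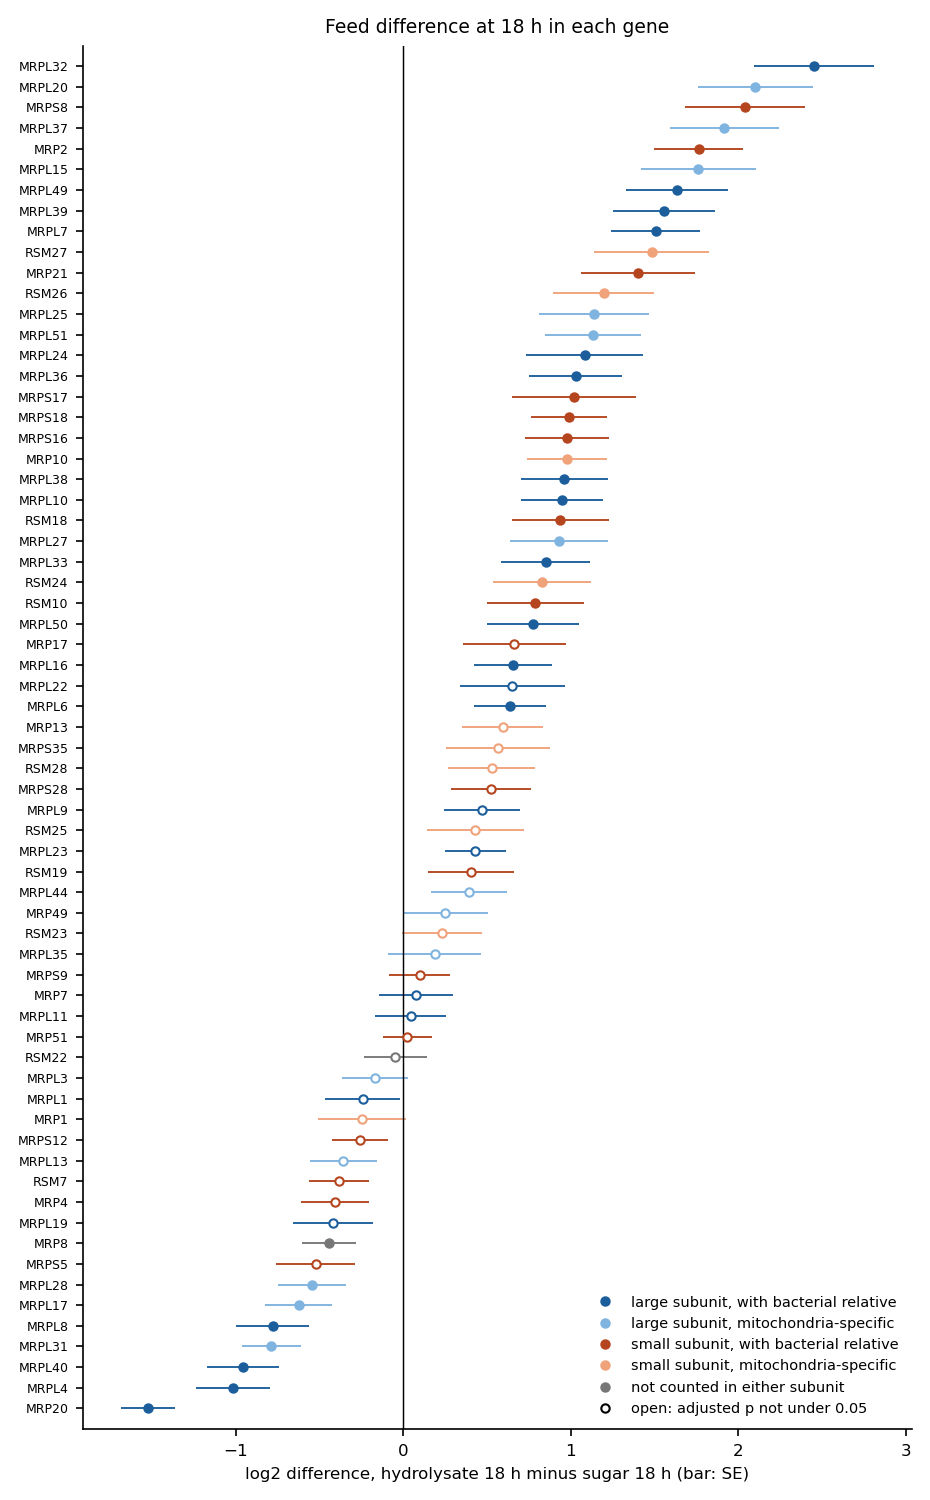
Difference between feeds at 18 h (hydrolysate minus sugar, log2) for each of the 66 genes, with bars of 1 SE from limma, coloured by subunit class, and open points where the adjusted p was not under 0.05. The values run from -1.52 in MRP20 to 2.45 in MRPL32, and the 8 genes called lower are 7 of the large subunit and MRP8, while 3 small subunit genes join them with the length trend removed.

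Large and small subunit genes had like medians at 18 h, 0.64 and 0.59, and so had genes with a bacterial relative (0.65) and mitochondria-specific genes (0.54). Among the first, 20 of 40 rose and 4 fell. Among the second, 10 of 24 rose and 3 fell. These classes were not tested against each other.

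The difference between feeds moved with gene length. The 66 genes were short, with a median of 706.5 bp against 1224 bp over 5601 genes with a known length. Of the 33 shorter genes, 23 rose, 3 fell and the median was 0.94. Of the 33 longer genes, 7 rose, 5 fell and the median was 0.10. The correlation of the log2 difference with log10 length was -0.40 over the 66 genes and -0.27 over all 5601, as a description across genes that share the same arrays. The difference between the 3′ and 5′ signals of 8 control genes, a measure of RNA wholeness that grows as 5′ ends are lost, also differed between the feeds: it was 1.27 and 1.20 on the hydrolysate 18 h arrays and 0.604 and 0.593 on the sugar 18 h arrays. Its part in the result was not tested.

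With the length trend of all genes removed from each array, 15 of the 66 genes rose and 13 fell, and the median was 0.27. The call and its direction were kept in 15 of the 30 rises and all 8 falls. MRPL32 was then at 2.03, MRPS8 at 1.55, MRPL20 at 1.70 and MRP20 at -1.77. The 5 further falls were in MRPL13, MRPL19, MRPS5, MRPS12 and RSM7.

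**Figure D3:**
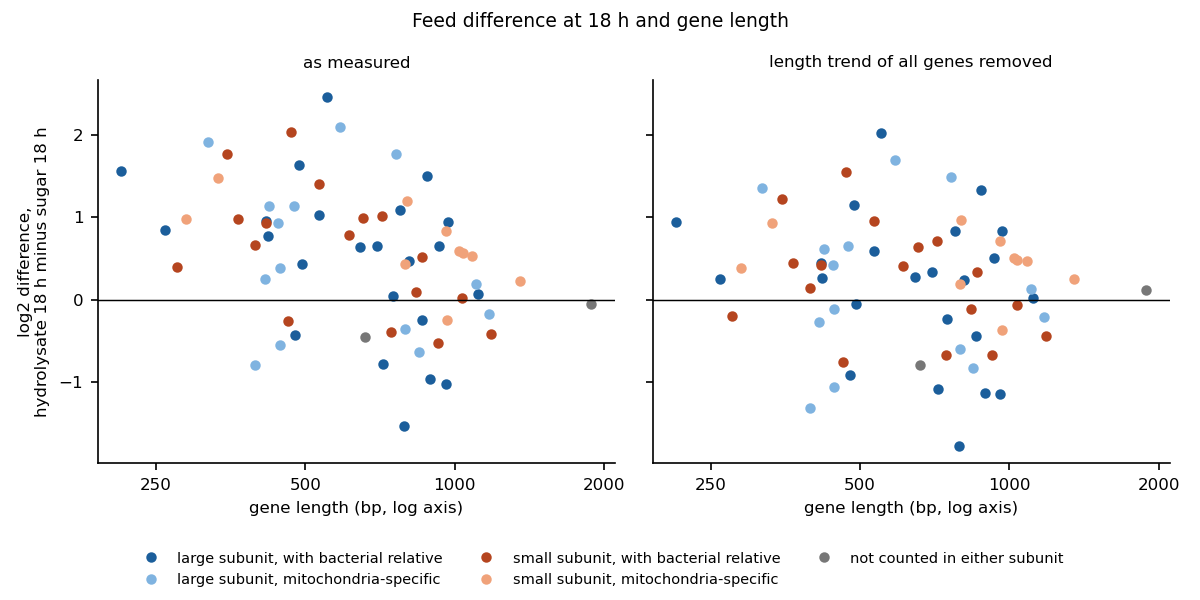
Difference between feeds at 18 h (hydrolysate minus sugar, log2) against gene length (bp, log axis) for the 66 genes, as measured (left) and after the length trend of all genes was removed from each array (right). Colours give the subunit class. Short genes lie higher on the left, where r is -0.40, and less so on the right, where r is -0.19, and MRPL32 stays highest and MRP20 lowest in both.

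At 9 h the difference between feeds was positive in 63 of the 66 genes, with a median of 0.68 against 0.03 over all genes, but 6 genes were called higher and none lower. Over all genes 9.67% were called, 5.77% as higher and 3.91% as lower, and 42 of the 66 had an unadjusted p under 0.05. Both hydrolysate arrays lay above both sugar arrays in 51 genes, against 33.2% of all genes. The called genes were MRP10 (1.22 ± 0.24, adjusted p = 0.0249 by limma), MRPS9 (1.04 ± 0.18), MRPL23 (1.01 ± 0.18), MRPL44 (0.94 ± 0.23), MRPS18 (0.89 ± 0.23) and MRPL17 (0.78 ± 0.20). MRP10 is a small mitochondria-specific protein of the small subunit, MRPS9 and MRPS18 are relatives of bacterial S9 and S11, MRPL23 is a relative of bacterial L13, and MRPL44 is mitochondria-specific.

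MRP10 had 10.82 and 9.99 on the hydrolysate 9 h arrays, against 9.11 and 9.26 on the sugar 9 h arrays. MRPS9 had 12.57 and 12.14 in hydrolysate and 11.16 and 11.47 in sugar at 9 h. The groups did not overlap in either gene, and the first hydrolysate array was the higher of the pair in both.

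That array stood apart for these genes. Hydrolysate 9 h replicate 1 exceeded replicate 2 in 65 of the 66 genes, by a median of 0.77, and at least 2-fold in 16. Over all genes the median of this difference was 0.02, over the cytosolic ribosomal proteins 0.06 and over the respiratory chain and ATP synthase subunits 0.28. The median between replicates of the same 66 genes was 0.33 at the start, -0.15 in hydrolysate at 18 h, -0.23 in sugar at 9 h and 0.02 in sugar at 18 h. Set against the mean of both sugar 9 h arrays, replicate 1 had a median of 1.12 and replicate 2 of 0.26. Replicate 1 lay above both sugar arrays in 64 genes and replicate 2 in 52.

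With hydrolysate 9 h replicate 1 left out, the 66 genes had a median feed difference at 9 h of 0.26, against 0.004 over all genes. With replicate 2 of that group left out these medians were 1.12 and 0.04. Leaving out sugar 9 h replicate 1 gave 0.56 and 0.01, and leaving out sugar 9 h replicate 2 gave 0.77 and 0.04. Dropping one of the 18 h arrays, which only add to the estimate of spread, left the median of the 66 at 0.68. None of the calls among the 66 at 9 h held without each array in turn. The number called over all genes also moved with the array left out, so this loss of calls was not particular to the 66. The control genes' 3′ minus 5′ difference was 0.926 on hydrolysate replicate 1 and 0.995 on hydrolysate replicate 2, against 0.671 and 0.667 on the sugar 9 h arrays. At the start it was 0.778 and 0.884. It thus differed between the feeds at 9 h too, and its part in the comparisons with sugar and with the start was not tested.

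**Figure D4:**
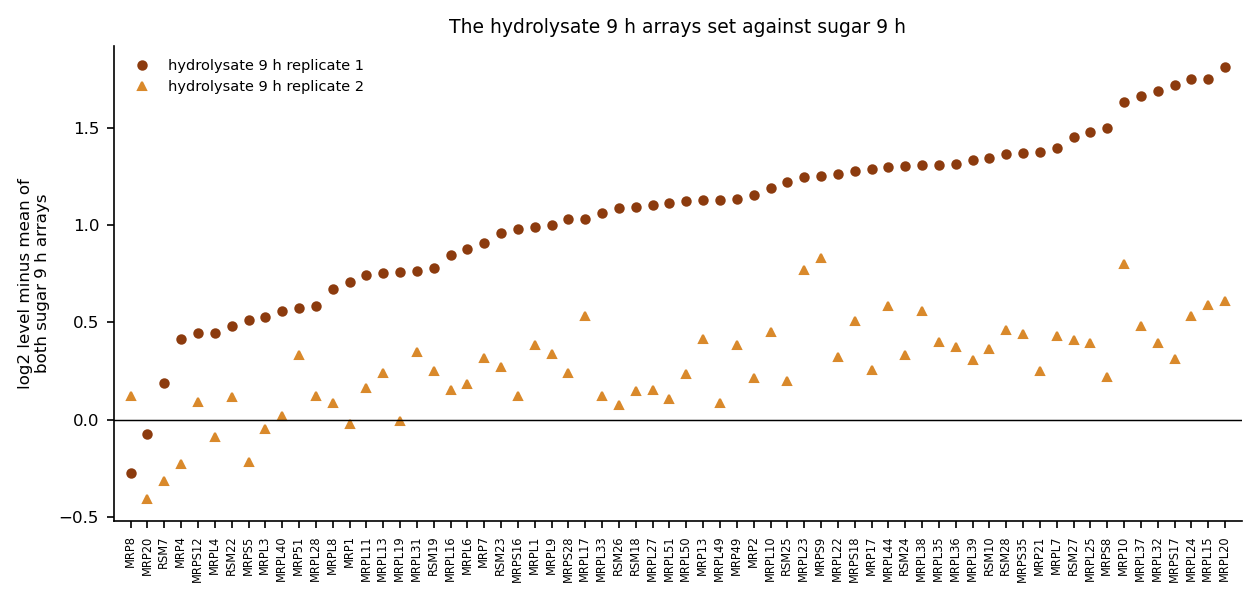
Log2 level of each of the 66 genes on the hydrolysate 9 h arrays minus the mean of both sugar 9 h arrays, for replicate 1 (circles) and replicate 2 (triangles), with genes ordered by replicate 1. Circles have a median of 1.12 and triangles of 0.26, and the circle lies below the triangle only in MRP8.

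The change of the feed difference between 9 h and 18 h was tested directly. It was negative and called in 8 of the 66 genes, and positive and called in none. Over all genes 27.4% were called, 14.3% as higher and 13.1% as lower. The share of the 66 called lower was thus close to that of all genes. Of the 66, 15 had an unadjusted p under 0.05. MRPL17 had a feed difference of -0.63 at 18 h against 0.78 at 9 h, a change of -1.41 ± 0.28 (adjusted p = 0.0104 by limma). MRPL31 changed by -1.35 ± 0.25, MRP20 by -1.29 ± 0.23 and MRPL40 by -1.25 ± 0.31. The others were MRPL4 (-1.20), MRPL8 (-1.16), MRPS9 (-0.94) and MRPL28 (-0.90). MRPL32 had the largest positive change, 1.41 ± 0.51, and was not called (adjusted p = 0.0695). Without hydrolysate 9 h replicate 1, 6 genes were called lower and 15 higher. Without hydrolysate 9 h replicate 2, 17 were lower and 0 higher, and without any 1 of the sugar or hydrolysate 18 h arrays or the sugar 9 h arrays, 3 or 4 were lower. MRP20, MRPL17 and MRPL31 kept the call without each of the 10 arrays.

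Within the hydrolysate cultures, 23 genes were lower at 18 h than at 9 h and none was higher, with a median of -0.57. This comparison called 35.2% of all genes, 17.1% as lower, and 32 of the 66 had an unadjusted p under 0.05. The largest falls were in MRPL31 (1.41 ± 0.18), in MRPL11 (1.38 ± 0.21) and MRPL19 (1.23 ± 0.24), relatives of bacterial L10 and L11 at the base of the stalk where translation factors bind, and in MRP4, a relative of bacterial S2 (1.23 ± 0.20). MRPL11 had 9.09 and 9.25 on the hydrolysate 18 h arrays, against 10.84 and 10.25 at 9 h, an adjusted p of 0.00206 by limma, and the groups did not overlap. Without hydrolysate 9 h replicate 1 the count was 14 lower and 2 higher with a median of -0.17. Without hydrolysate 9 h replicate 2 it was 56 lower and 1 higher with a median of -1.01, and without hydrolysate 18 h replicate 1 or 2 it was 12 or 15 lower.

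Within the sugar cultures, 16 genes were lower at 18 h than at 9 h and 1 was higher, with a median of -0.38. Of all genes, 58.9% were called, 27% as lower, so fewer of the 66 were called than of all genes. The falls were led by MRPL32 (1.95 ± 0.36), MRPS8 (1.78 ± 0.36), MRPL49 (1.50 ± 0.30) and MRPL7 (1.32 ± 0.26). MRPL32 had 9.50 and 9.41 on the sugar 18 h arrays and 11.30 and 11.50 on the sugar 9 h arrays. The gene that rose was MRP8, by 0.75 ± 0.16 (adjusted p = 0.00355 by limma), with 13.65 and 13.61 at 18 h, against 12.79 and 12.98 at 9 h. The count moved with single arrays: it was 6 lower without sugar 9 h replicate 2, 9 without sugar 18 h replicate 1, 8 without sugar 18 h replicate 2, and 32 without either hydrolysate 9 h array, which only adds to the estimate of spread.

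Several further subunits with known roles were described whatever their values. MRPL36, a relative of bacterial L31, rose by 1.03 ± 0.28 in hydrolysate at 18 h, and MRPL16, a relative of bacterial L16, by 0.65 ± 0.24. RSM26 rose by 1.20 ± 0.30 while MRP1, which like RSM26 resembles manganese superoxide dismutase, had -0.24 ± 0.26 (adjusted p = 0.435 by limma). MRP10 rose by 0.98 ± 0.24. With the length trend removed the calls of MRPL36 (0.59, adjusted p = 0.0526), MRPL16 (0.34, adjusted p = 0.176) and MRP10 (0.39, adjusted p = 0.088) were lost, while RSM26 was still called at 0.96.

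Those not called between the feeds at 18 h were MRP7, a relative of bacterial L27 (0.07), MRP51, a yeast protein that works with the leaders of mitochondrial messages (0.02), RSM23, whose human relative is the death-associated protein DAP3 (0.23), MRPS12 of the decoding centre (-0.26) and MRPS5, a relative of bacterial S5 (-0.52, adjusted p = 0.0833). MRPS12 and RSM19, a relative of bacterial S19, are neighbours on chromosome XIV, from 694361 to 694822 and from 695052 to 695327 on the minus strand, and had -0.26 and 0.40, neither called. The smallest spans of group means were in RSM22 (0.73), MRP49 (0.92) and MRP1 (0.96). The largest were in MRPL32 (3.39), MRPL20 (3.39) and MRPL15 (3.36).

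A further 13 proteins of the mitochondrial ribosome carry other names, and these went the same way against the start. All 13 were lower in hydrolysate at 18 h (median -1.37) and 12 were lower in sugar at 18 h (median -1.40) and at 9 h (median -1.42). The shares of all genes called lower in these comparisons were 22.2%, 29.7% and 32.2%. Not all 13 stood above the background, which was 4.67 to 4.90 over the arrays. The lowest level among them was 3.86 and 3.92 on the hydrolysate 18 h arrays and 4.55 and 5.12 at the start. At 18 h between the feeds 2 rose and 2 fell, where 61.9% of all genes were called. MNP1, a relative of bacterial L7/L12 in the stalk, was higher in hydrolysate by 1.36, and MRX14, a relative of bacterial L34, by 0.96, which was 0.40 and not called with the length trend removed. IMG1, a large subunit protein, fell by 0.93 and RTC6, a relative of bacterial L36, by 0.60.

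Other genes of mitochondrial gene expression and protein import were mixed between the feeds at 18 h. That comparison called 61.9% of all genes, 31.2% as higher and 30.8% as lower. Of 14 mitochondrial tRNA synthetases, 5 rose and 2 fell in hydrolysate against sugar at 18 h. The synthetases of tryptophan (MSW1, 2.26) and phenylalanine (MSF1, 1.44) rose most, and 9 of 14 were lower in sugar at 18 h than at the start. Of 12 translation factors, 2 rose, MEF2 (1.72) and the release factor MRF1 (0.78), and GTF1, a subunit of the enzyme that makes glutaminyl-tRNA, fell by 1.33. On the hydrolysate 18 h arrays GTF1 had 5.07 and 4.76, near the background of 4.67 to 4.90. On the sugar 18 h arrays it had 6.41 and 6.08. Of 17 activators of single mitochondrial messages, 7 rose and 2 fell, led by CBS1 (2.72), which acts on the cytochrome b message, and PET54 (1.67). Of 10 assembly and ribosomal RNA modification factors measured of 12 listed, 3 rose and none fell, led by the helicase MSS116 (1.41), with 3 of 10 under an unadjusted p of 0.05. Of 30 import genes, 12 rose and 7 fell, led by TIM9 (1.98), a chaperone of the space between the membranes. Of 12 genes for mitochondrial transcription and DNA maintenance, 5 rose and 3 fell, and the largest was MTF2 at 1.49. Against the start, 22 of 30 import genes were lower in sugar at 18 h and 2 higher, with a median of -1.25. In hydrolysate at 18 h 20 were lower and 0 higher. Medians in sugar at 18 h were -0.91 for synthetases, -0.68 for translation factors and -0.56 for assembly factors. They were -0.35 for activators and -0.07 for transcription and DNA maintenance. Of all genes, 29.7% were called lower in sugar at 18 h and 22.2% in hydrolysate at 18 h.

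Against the start, cytosolic ribosomal proteins went the other way from mitochondrial ones in hydrolysate at both times and in sugar at 9 h. Of 130 such genes, a list that by its pattern also holds the RNase P subunit RPP1, 121 were higher in hydrolysate at 9 h than at the start, 117 in hydrolysate at 18 h and 124 in sugar at 9 h, and none was lower in these comparisons. The shares of all genes called higher in them were 33.6%, 33.2% and 33.9%. In sugar at 18 h, 46 were higher and 25 lower, where 36.8% of all genes were called higher and 29.7% lower. The medians of the 66 mitochondrial genes in these 4 comparisons were -0.69, -1.15, -1.38 and -1.79, against 1.25, 0.94, 1.38 and 0.16 for the cytosolic genes. Factors that build the cytosolic ribosome were higher in 57 of 57 measured genes in hydrolysate at 9 h and in 55 in sugar at 9 h. Between the feeds at 18 h both kinds of ribosomal protein gene had positive medians, 0.58 for the mitochondrial and 0.87 for the cytosolic, and 96 of 130 cytosolic genes rose and 1 fell. The shares of all genes called there were 31.2% higher and 30.8% lower. At 9 h the medians were 0.68 for the mitochondrial and -0.08 for the cytosolic genes, with 0 cytosolic genes higher and 1 lower. That comparison called 5.77% of all genes as higher and 3.91% as lower.

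Of 40 nuclear genes for the respiratory chain and the ATP synthase, whose partners the mitochondrial ribosome makes, 31 were higher in hydrolysate than in sugar at 18 h and 2 were lower, with a median of 0.76. Over all genes 31.2% were called higher in this comparison and 30.8% lower. CYC1, the main cytochrome c, was higher by 3.60, and ATP17, a subunit of the ATP synthase, by 2.05. Against the start, the 66 mitochondrial ribosomal genes had 1 higher, 55 lower and a median of -1.15 in hydrolysate at 18 h, while the 40 respiratory genes had 3 higher, 1 lower and a median of 0.05. In sugar at 18 h, 1 respiratory gene was higher and 30 were lower, with a median of -0.67. Over all genes 33.2% were called higher and 22.2% lower in hydrolysate at 18 h, and 36.8% and 29.7% in sugar at 18 h.

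**Figure D5:**
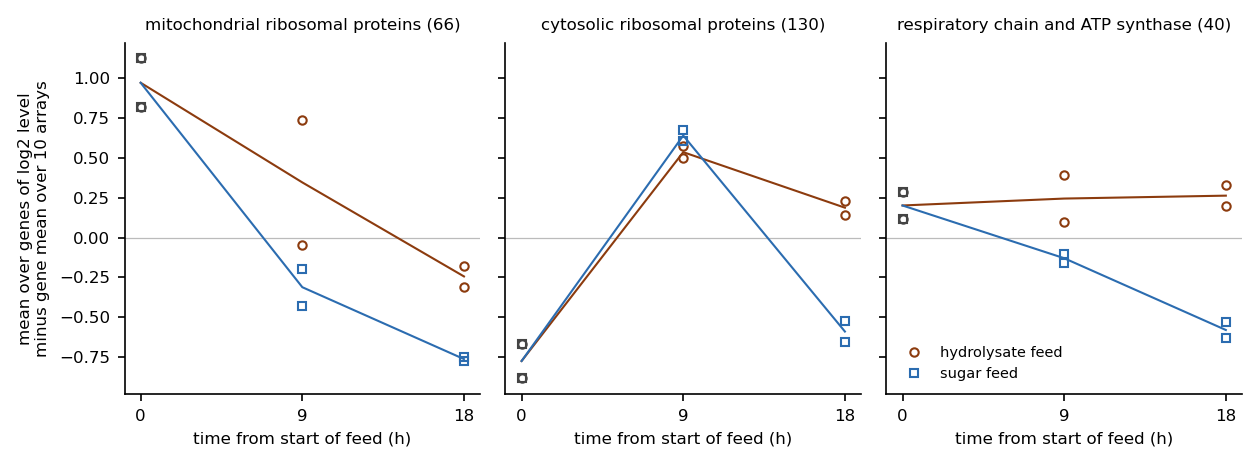
Mean over the genes of the log2 level minus each gene's mean over 10 arrays, at 0, 9 and 18 h, for the 66 mitochondrial ribosomal protein genes, 130 cytosolic ribosomal protein genes and 40 respiratory chain and ATP synthase genes, with 1 point an array (circles hydrolysate, squares sugar, grey start arrays shared by both feeds) and lines through the means of the 2 arrays. The mitochondrial genes are at 1.12 and 0.82 at the start and at -0.75 and -0.77 in sugar at 18 h. The cytosolic genes are at -0.67 and -0.88 at the start and also low in sugar at 18 h, at -0.65 and -0.53.

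Known regulators of messages for mitochondrial ribosomal proteins, of respiratory genes or of cytosolic ribosomal protein genes were also measured. PUF3 binds the 3′ ends of many messages for mitochondrial ribosomal proteins and promotes their decay in glucose. It had log2 levels of 7.99 and 8.14 on the hydrolysate 18 h arrays, against 9.24 and 9.39 on the sugar 18 h arrays, and was lower by 1.25 ± 0.22 (adjusted p = 0.00146 by limma). At 9 h it had 8.25 and 7.71 in hydrolysate and 7.67 and 7.84 in sugar, with overlapping arrays. At the start PUF3 had 8.73 and 9.25, and it was lower than that in hydrolysate at 9 h by 1.01, in hydrolysate at 18 h by 0.92 and in sugar at 9 h by 1.23, all called. In sugar at 18 h, where 62 of the 66 were lower, its difference from the start was 0.32 and not called. HAP4, the activating subunit of the HAP complex that drives respiratory genes, had 12.73 and 13.13 in hydrolysate and 10.16 and 9.98 in sugar at 18 h, and was higher by 2.86 ± 0.25. HAP4 was also above the start in hydrolysate at 18 h, by 3.43 ± 0.25, where 55 of the 66 genes were lower. Of the 5 HAP regulators, HAP3 (3.00) and HAP4 rose and HAP2 (-1.83) and HAP1 (-1.51) fell between the feeds at 18 h. SFP1, a regulator of cytosolic ribosomal protein genes, had 11.10 and 11.10 in hydrolysate and 11.16 and 11.21 in sugar at 18 h, a difference of -0.09 ± 0.17 that was not called. A link between the levels of these regulators and those of the 66 genes was not tested.

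The 10 genes outside the name rule whose pattern over the 10 arrays was most like the average of the 66 had correlations of 0.978 to 0.994, as a description over arrays that share groups. They were YGR021W (0.994), PET117 (0.989), AIM24, FMC1, MNP1, CBP6, SDH7, MRX14, NAM9 and MSC6. Of these, MNP1, MRX14 and NAM9 are on the list of mitochondrial ribosomal proteins under other names. PET117, FMC1 and SDH7 are known for the assembly of cytochrome oxidase, the ATP synthase and succinate dehydrogenase, and CBP6 for the translation of the cytochrome b message.

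In the authors' deposited table none of the 66 genes carried a call in either feed comparison, with adjusted p-values of 1 at 9 h and down to 0.0589, for MRPL32, at the later time. That table called 25 probe sets at 9 h and 307 at the later time over the whole array. Its log2 differences for the 66 genes equal those given here to within 4.88e-10, while its adjusted p-values are higher than those given here for all 66 genes in both comparisons, with the adjustment and the call headed global in that table.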

How the data were processed

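RNA from 10 samples, extracted with Trizol, was amplified from the 3′ end, labelled with biotin and hybridised to Affymetrix arrays, per the labels' protocols. The deposited values are log2 intensities made by the authors. The submitters' processing notes name RMA, a method of background correction, quantile normalization and probe set summary, and R 4.2.1, limma 3.52.4 and affy 1.74.0, without roles. Depth does not apply to arrays, and the 2 arrays a group limit the precision. The log2 values, already normalized as deposited, were used with no further scaling.

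Of 10928 probe sets, 5811 were S. cerevisiae by the deposited annotation. Those without a gene name, 108 in number, were left out. For the 47 genes with several probe sets the one with the highest mean was kept, which gave 5654 genes. The 5 groups were fitted together with limma 3.58.1 in R 4.3.3 (5 residual degrees of freedom and a prior of 3.49), for 9 comparisons, with Benjamini-Hochberg adjustment over all 5654 genes and calls under 0.05. The alternatives were another prior, no dim genes, the mean of probe sets, median centring, a replicate block, only the arrays compared, the length trend removed and each array left out. Replicates are biological per the labels. The comparisons share arrays: the start arrays enter 4 of them, and the hydrolysate 9 h arrays also 4. The genes and lists, and the 11 lists of related genes, were chosen with earlier results of these data known. Genes named are the 4 largest called changes each way in each comparison (10 rises and 8 falls between the feeds at 18 h), plus subunits and regulators of known role, up to 4 called genes of each related list, the widest and narrowest spans, and the 10 genes most alike. The further genes of the counts of 6 and 8 and of those not called, and RSM19 and RSM7, were named after their values were seen. A rule to name genes by their level was dropped, since levels of different probe sets cannot be compared. Length effects used a loess fit (span 0.5) of each array's deviation on log10 length for 5601 genes. Mitochondrially encoded genes were not analysed here. The authors' deposited table of comparisons gives p-values, log2 differences and a call score of 1, -1 or 0, and heads the later time 17 h where the labels have 18 h. 10 columns of that table with values per array were not used. The labels do not state whether samples of the same replicate number in different groups came from the same culture. Correlations of replicate deviations ran from -0.204 to 0.130 over 10 pairs of groups, with 1 over 0.1. They also carry array noise, so they cannot decide whether the samples are paired, and the main fit used no pairing. The procedure was tested on simulated data. Python 3.11.15, pandas 2.3.3, numpy 2.4.6 and matplotlib 3.10.9 were used.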

Additional observations from a re-analysis of the deposited data

Results flagged for a closer look

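The difference between the feeds was not the same at 18 h and 9 h in 8 of the 66 mitochondrial ribosomal protein genes and 2 regulators, by the limma test of that change (18 h minus 9 h, log2). This test called 27.4% of all genes, 14.3% as higher and 13.1% as lower. The 8 called among the 66 were all lower, a share close to that of all genes. None of the 66 was called higher, so fewer of the 66 were called in all. The change was -1.41 in MRPL17, -1.35 in MRPL31, -1.29 in MRP20, -1.25 in MRPL40, -1.2 in MRPL4, -1.16 in MRPL8, -0.941 in MRPS9 and -0.9 in MRPL28. Among the regulators it was -1.47 in PUF3, which was not called between the feeds at 9 h, and 1.65 in HAP4, which was higher in hydrolysate at both times. All of these use the hydrolysate 9 h arrays, of which replicate 1 was the higher in 65 of the 66 genes. In MRP20, MRPL17 and MRPL31 the call held without each of the 10 arrays.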

How the results depend on the processing

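A prior with trend and robust fit, removal of dim genes and the mean of probe sets kept every count within 1.5 times. With only the arrays compared, the counts called were 0 between the feeds at 9 h, 13 lower at 18 h (41 higher), 12 for hydrolysate 9 h against the start, 13 for hydrolysate 18 h against 9 h and 36 for sugar 18 h against 9 h. With the length trend removed, 15 rose and 13 fell between the feeds at 18 h, and 14 changed between the times. The cause was not tested. Leaving out each array in turn, with a lone array assumed to vary like the other groups, gave 0 to 53 called between the feeds at 9 h, and 20 to 51 at 18 h (15 to 39 higher, 4 to 12 lower). It gave 3 to 21 for the change between times, and against the start 15 to 55 for hydrolysate 9 h, 40 to 64 for hydrolysate 18 h, 46 to 57 for sugar 9 h and 59 to 64 for sugar 18 h. Between times it gave 12 to 57 in hydrolysate and 7 to 33 in sugar. Over all genes the number called also moved with the array left out. The replicate block was used although the labels state no pairing of the samples by number. It gave 4 and 37 called between the feeds at 9 h and 18 h and 7 for their change. It moved no count by over 1.5 times.

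No called value of the 141 named changed sign, and 80 of the 104 called kept the call in every setting and without each array. Values that were not called and changed sign were MRP51 between the feeds at 18 h (-0.0035 median centred, -0.057 without the length trend, and -0.046 to 0.095 with an array left out), RSM22 (0.12 without the length trend, -0.15 to 0.056 with an array left out) and SFP1 (0.11 without the length trend). At 9 h the ranges with an array left out were -0.021 to 0.71 for MRP1, -0.28 to 0.12 for MRP8, -0.22 to 0.51 for MRPS5 and -0.040 to 0.49 for PUF3. For the change between times they were -0.65 to 0.18 for MRP10, -0.19 to 0.50 for MRPL16 (-0.083 without the length trend) and -0.28 to 0.66 for MRPL36 (-0.11 without the length trend).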
